A study of Drosophila melanogaster with 3 samples.

Results

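The genes described are the microRNA genes of Drosophila melanogaster other than bantam, read against the binding of the protein clockwork orange (cwo). They are all genes of the Ensembl annotation of build dm6 whose symbol starts with mir-, let-7 included under its annotated symbol mir-let7, with mir-ban left out. This gave 261 of 18358 annotated genes, of which 259 lie on the 6 main chromosome arms and 2, mir-10404-1 and mir-10404-2, lie on the ribosomal DNA scaffold, where the lists hold no region. The members are short, 50 to 174 bp with a median of 92 bp. Chromatin immunoprecipitation and sequencing (ChIP-seq) was done on whole mixed-sex embryos, 6 to 24 h old by the source name, of a transgenic fly line in which cwo carries green fluorescent protein (GFP) at its C-terminus. An antibody against GFP pulled down the chromatin, and the 3 samples are biological replicates of this single group by their labels. The tagged line is 1 line, whole embryos mix all tissues, and every list therefore averages over cell types. No second condition was analysed here, so the values below are a description of where regions lie and no p-value is given.

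MicroRNAs are short RNAs cut from hairpins, first in the nucleus by Drosha with its partner Pasha and then in the cytoplasm by Dicer. An Argonaute protein carries the finished strand to messenger RNAs that pair with its seed, the bases near its 5′ end, and those messages are repressed or degraded. Many fly hairpins sit in introns of protein-coding genes or in clusters cut from a shared primary transcript, so the promoter that makes a microRNA can lie some way from the hairpin. The cwo protein is a basic helix-loop-helix Orange repressor of the circadian clock, known to bind the E box CACGTG that the activators Clock and Cycle also use.

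The mature strands of the microRNAs on which the family and cluster results turn are shown first. They were read from the RefSeq dm6 genome at the mature positions that RefSeq annotates, 5′ to 3′ and with T for U, and the capitals mark the seed, bases 2 to 8. A mature position was annotated for 259 members. The first lines share the seed of the K box family, which pairs with a motif in Notch target genes.
mir-2a-1: tATCACAGccagctttgatgagc
mir-2b-1: tATCACAGccagctttgaggagc
mir-2c: tATCACAGccagctttgatgggc
mir-13a: tATCACAGccattttgatgagt
mir-13b-1: tATCACAGccattttgacgagt
mir-11: cATCACAGtctgagttcttgc
mir-279: tGACTAGAtccacactcattaa
mir-996: tGACTAGAtttcatgctcgtct
mir-92a: cATTGCACttgtcccggcctat
mir-92b: aATTGCACtagtcccggcctgc
mir-276a: tAGGAACTtcataccgtgctct
mir-276b: tAGGAACTtaataccgtgctct
mir-277: tAAATGCActatctggtacgaca
mir-34: tGGCAGTGtggttagctggttgtg
mir-275: tCAGGTACctgaagtagcgcgcg
mir-305: aTTGTACTtcatcaggtgctctg
mir-33: gTGCATTGtagtcgcattgtc
mir-9a: tCTTTGGTtatctagctgtatga
mir-210: cTTGTGCGtgtgacagcggctat
mir-let7: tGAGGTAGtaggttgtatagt
The mature strands of mir-279 and mir-996 share their seed but matched at only 10 of 22 aligned positions, whereas mir-276a and mir-276b matched at 21 of 22 and mir-92a and mir-92b at 18 of 22.

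The next lines show a choice of the stronger regions near members that held CACGTG, in capitals, within 100 bp of the summit, the single base that the authors' peak caller reports as the centre of a region. Each run has 24 bases on either side of the E box, on the plus strand of the RefSeq dm6 genome. The mir-4982 region, of rank 526, also held the E box and is not printed. For mir-9373 and mir-282 the printed regions, of ranks 893 and 997, are not their strongest. Their strongest regions, of ranks 828 and 726, had no CACGTG within 100 bp of the summit.
mir-965 region, chr2L:246900-246953: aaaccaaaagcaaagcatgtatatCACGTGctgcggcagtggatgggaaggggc
mir-4962 region, chrX:3777423-3777476: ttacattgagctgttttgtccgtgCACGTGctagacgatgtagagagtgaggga
mir-9377 region, chrX:12666466-12666519: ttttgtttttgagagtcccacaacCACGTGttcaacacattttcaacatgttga
mir-4949 region, chr3R:31215894-31215947: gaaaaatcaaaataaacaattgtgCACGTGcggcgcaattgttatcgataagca
mir-2500 region, chr3L:17000377-17000430: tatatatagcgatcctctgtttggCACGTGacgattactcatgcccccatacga
mir-9373 region, chr3R:19620184-19620237: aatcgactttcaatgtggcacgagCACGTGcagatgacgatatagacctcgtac
mir-282 region, chr3L:3253836-3253889: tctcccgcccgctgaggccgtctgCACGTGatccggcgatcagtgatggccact
In mir-4962 the E box lies in the hairpin gene itself. Its 124 bases are printed on the gene's strand, chrX:3777382-3777505, with the E box starting at base 66 and the summit at base 70.
mir-4962: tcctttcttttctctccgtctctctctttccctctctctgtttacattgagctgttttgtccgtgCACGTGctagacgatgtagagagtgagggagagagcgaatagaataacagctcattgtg

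A member was called bound when a summit of the authors' optimal list, the 7366 regions that passed the irreproducible discovery rate (IDR) procedure, lay within 5000 bp of it. By this rule 94 of 259 members on the arms were bound, 36.3% (95% Wilson interval 30.7 to 42.3%), and 165 were not. The same rule called 51.2% of all other annotated genes, 44.0% of the other genes no longer than 174 bp, and 29.6% of all positions of the 6 arms. The members' share thus lay between that of positions and that of other short genes. At closer range 33 members (12.7%) had a summit within 1000 bp, against 16.1% of other short genes and 9.00% of positions. Within 2000 bp 51 members (19.7%) had one, against 28.2% of other short genes and 15.6% of positions. At 10000 bp the members' share was 54.4%, that of other short genes 58.3% and that of positions 44.6%. All other genes had 30%, 36.9% and 66% at 1000, 2000 and 10000 bp. Nearby members share regions, so they are not independent, and after members within 10000 bp of each other were joined, 80 of 197 loci were bound (40.6%, interval 34.0 to 47.6%).

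**Figure D1:**
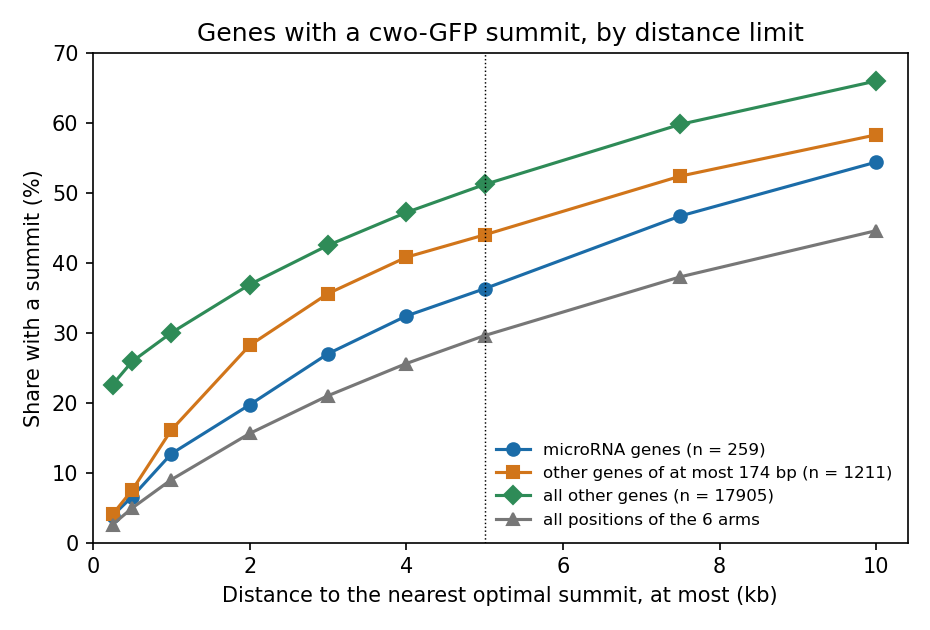
Share of genes or positions (%, vertical axis) whose nearest optimal summit lies within a given distance (kb, horizontal axis), for microRNA genes, other short genes, all other genes and all positions of the 6 arms. The microRNA genes lie between other short genes and positions from 1 kb upwards, with 36.3% at the 5 kb limit (dotted line).

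The bound share differed little between replicates. With each replicate's list limited to its 7366 strongest regions, 91 members (35.1%) were bound in replicate 1, 96 (37.1%) in replicate 2 and 97 (37.5%) in replicate 3, a mean of 36.6% ± 1.24 (SD, n = 3). Of the 94 bound members, 82 were bound in all 3 replicates and 12 in 2 of them. The strongest summit of 77 of the 94 (81.9%) lay inside one of the strongest 7366 regions of all 3 replicates, and for the other 17 this held in 2 replicates. Over the 186 distinct summits near members the share was 134 (72.0%), beside 71.9% of all optimal summits. The optimal list was made from the same 3 replicates, so their lists are not an independent check of it.

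Bound members were found on every arm but the short chromosome 4, where 0 of 2 members were bound. The share was 28 of 58 (48.3%) on 3R, 13 of 30 (43.3%) on 3L, 21 of 56 (37.5%) on 2L, 17 of 55 (30.9%) on 2R and 15 of 58 (25.9%) on X. The Wilson intervals for 3R, 35.9 to 60.8%, and for X, 16.3 to 38.4%, overlap. Shares of other genes or positions by arm were not compared, so the order of the arms is not a result about microRNA genes. Clusters also weigh on it, since X holds unbound loci of 12 and 5 members and 2R unbound loci of 8 and 7.

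Members inside a protein-coding gene on the same strand were bound most often, 60 of 136 (44.1%, interval 36.0 to 52.5%). Members inside an annotated non-coding RNA of at least 200 bp followed with 14 of 45 (31.1%, interval 19.5 to 45.7%), and those with no host gene had 20 of 78 (25.6%, interval 17.3 to 36.3%). The neighbouring intervals overlap. They treat hairpins of a cluster as independent, although each class holds whole unbound clusters. Examples are mir-9c and its neighbours in grp, the mir-309 cluster in a non-coding host, and mir-310 to mir-313 without a host. Positions inside protein-coding genes had a summit within 5000 bp in 34.9% of cases and positions outside them in 18.7%. No test of these differences was made, and some members without a protein-coding host on their own strand lie in a gene on the opposite strand. In all, 74 of 94 bound members (78.7%) lay in a host, beside 181 of 259 members (69.9%). In protein-coding hosts 45 of 100 members that lie in introns were bound (45.0%, interval 35.6 to 54.8%), and 15 of 36 that overlap an exon (41.7%, interval 27.1 to 57.8%), and these intervals overlap.

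**Figure D2:**
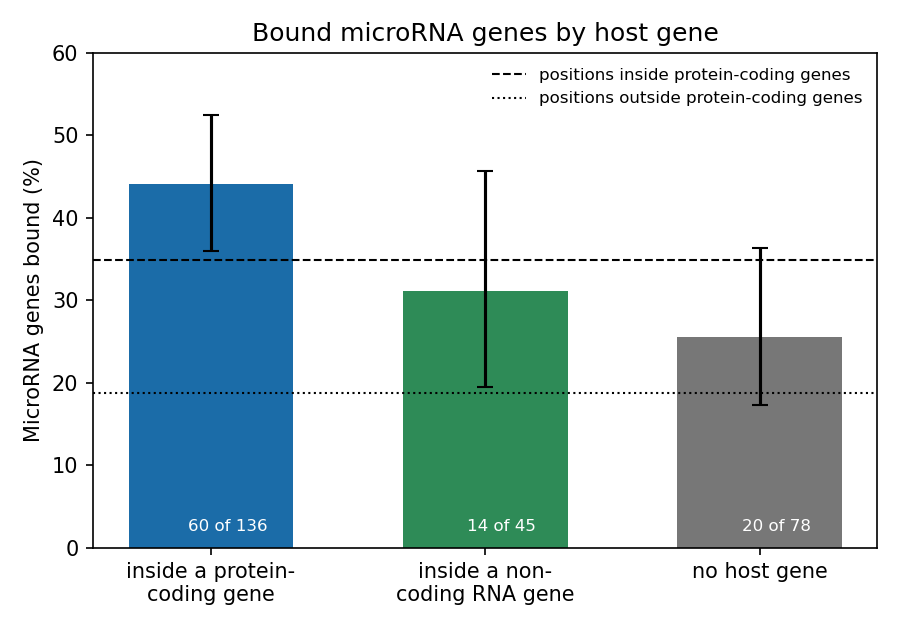
Share of microRNA genes bound (%, vertical axis) by the kind of host gene on the same strand. Bars give the share, error bars the 95% Wilson interval, numbers the bound and total genes, and lines the share of positions with a summit within 5 kb, 34.9% inside and 18.7% outside protein-coding genes. The bar falls from 44.1% in protein-coding hosts to 25.6% without a host, and the intervals of neighbouring bars overlap. The intervals treat hairpins of a cluster as independent.

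Some bound members had a summit at the promoter of the host. Of the 60 bound members in protein-coding hosts, 31 (51.7%) had any summit within 1000 bp of an annotated transcription start site (TSS) of the host. Of the 14 in non-coding hosts 9 (64.3%) did. The strongest summit lay there in 22 of the 60 (36.7%) and 5 of the 14 (35.7%). Of all protein-coding genes, 25.3% had a summit within 1000 bp of a TSS. Bound members have a summit within 5000 bp by the rule, so their shares are not comparable with that one. No such share was taken over non-coding RNA genes. Counted by summit and at any protein-coding TSS, 97 of 186 summits near members (52.2%) lay within 1000 bp, beside 50.1% of all optimal summits. The nearest summit lay upstream of the hairpin, by the hairpin's strand, in 61 bound members, downstream in 32 and inside in 1. The median distance from a bound member to its nearest summit was 1814 bp.

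The strongest region near any member belonged to mir-965, chr2L:243035-243141 on the minus strand, a microRNA known to act on the growth of abdominal progenitor cells. Its host, on the same strand, is the chromodomain gene kis, in an intron of which it lies. By signal the region ranked 3 of 7366 in the optimal list and 3, 3 and 4 in replicates 1, 2 and 3. Its summit lay 3795 bp upstream of the hairpin and 3887 bp from the nearest kis TSS, so it sat inside the gene and not at its annotated promoter. Its E box, shown above, was centred 9.5 bp from the summit. A weaker region of mir-965, 875 bp upstream, ranked 4285.

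The region over mir-4962, in an intron of the kinase gene Tlk (Tousled-like kinase), ranked 45 in the optimal list and 33, 47 and 49 in the 3 replicates. It is the single case in which an optimal summit fell inside a member, and the E box was centred 1.5 bp from that summit. Tlk held 5 further optimal summits within 5000 bp of this hairpin, with ranks from 610 to 7198, of which 2 lay within 200 bp of an annotated Tlk TSS, at 141 and 178 bp. The region belongs to the gene body of Tlk as much as to the hairpin.

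The next in strength were mir-4972, in an intron of for (the cGMP-dependent protein kinase foraging), and the pair mir-279 and mir-996. The mir-4972 region ranked 142, with 135, 159 and 138 in the replicates, and its summit lay 347 bp from a for TSS and 4466 bp downstream of the hairpin. The region of mir-279 and mir-996 ranked 145, with 105, 142 and 177. All 3 replicates placed the regions of mir-965 and mir-4962 first and second in this order, while replicates 1 and 2 ranked the mir-279 region above that of mir-4972 and replicate 3 the reverse.

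Below these the regions ranked from 323 downward. The mir-4943 region at the CG5953 promoter ranked 323, the mir-9377 region in Tis11, an mRNA decay factor, 340, and the mir-4949 region 342, the last 30 bp from the TSS of CG15561 and not at the promoter of the host ATPsynC. The mir-4909 region ranked 382 and lay at CG1946, the mir-4982 region at the host promoter of Hs3st-A ranked 526, and the mir-955 region at CG14968 ranked 591. The mir-2500 region ranked 619 with 639, 624 and 614 in the replicates, the closest agreement among these.

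Among the 20 strongest were also mir-282 (726, at the promoter of its non-coding host), mir-1004 (775), mir-4980 (787), mir-9382 (815, 195 bp from a TSS of its host MRP), mir-9373 (828), mir-87 (847) and mir-33 (850). The mir-87 region lay 10 bp from the TSS of CG4709 and 3799 bp from the hairpin. The member mir-9373, in an exon of CG6231, had 7 summits within 5000 bp, the largest number of any member, of which 2 held CACGTG.

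The region nearest to mir-318 and mir-994 varied most between replicates among these, ranking 661 in the optimal list and 615, 1416 and 468 in replicates 1, 2 and 3. Its summit lay 884 bp from the TSS of Irp-1B, an iron regulatory protein gene. The hairpins mir-994 and mir-318 lie 7385 and 7550 bp from cwo itself, the gene whose tagged copy the line carries, and whether that copy adds reads here was not tested.

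**Figure D3:**
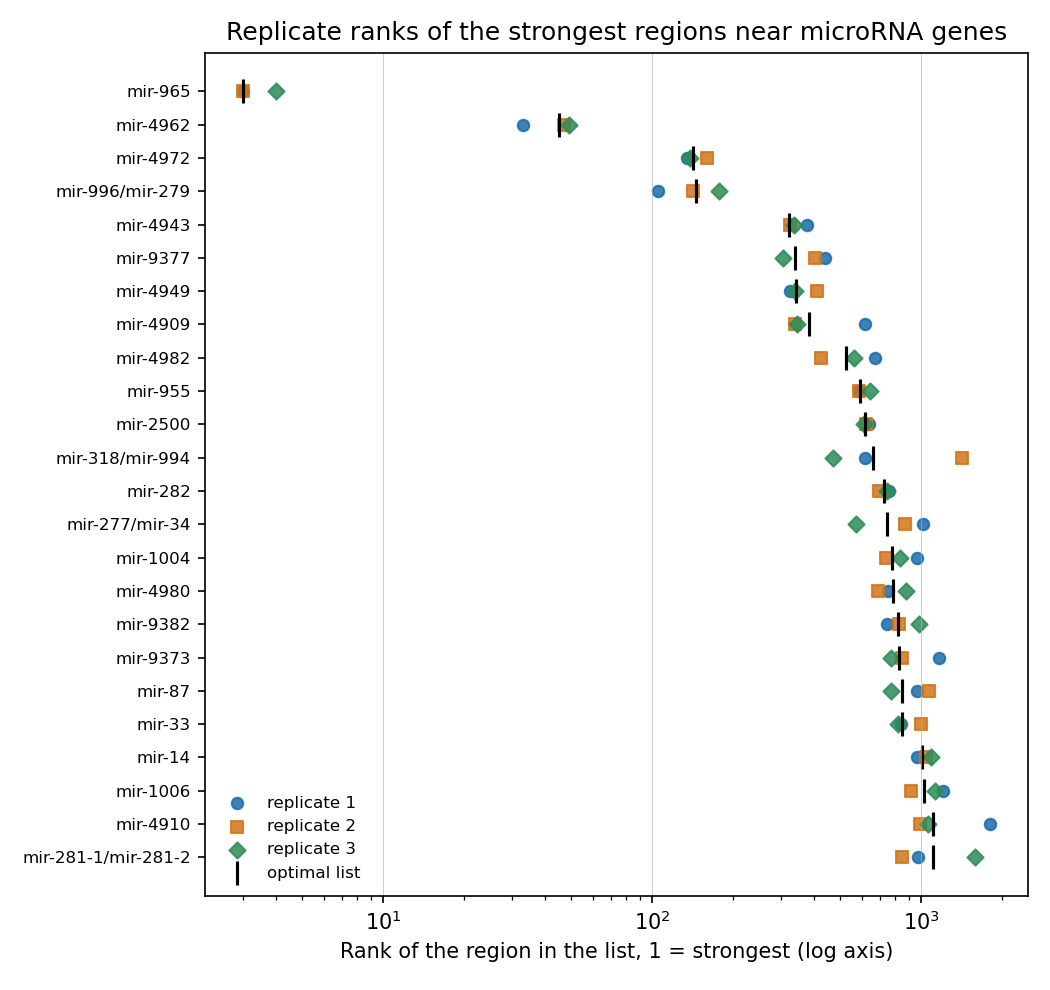
Rank of a region by signal (horizontal log axis, 1 = strongest) in the 3 replicate lists (points) and in the optimal list (black marks), for the strongest regions that are a microRNA gene's strongest. The mir-965 region ranks 3 or 4 in every list, and the spread is widest for mir-318/mir-994, from 468 to 1416.

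Over all 94 bound members the strongest summit had a median rank of 1947.5, beside a median of 3683.5 over the whole optimal list. Members with several summits pull this down, because the strongest of several is taken. The median over the 186 distinct summits near members was 3311, and that over each member's nearest summit was 3327.5. Of the 186 summits, 15 (8.06%) were among the 736 strongest, the top 10% of the list. Bound members had a median of 2 summits, and 42 had 1.

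A summit lay within 500 bp of 17 members (6.56%), beside 7.51% of other short genes and 4.94% of positions. Apart from mir-4962, at rank 45, their nearest summits ranked from 1145 to 7014. The median rank of the whole optimal list was 3683.5, and whether these ranks differ from it was not tested. The summit 84 bp upstream of mir-279 ranked 4976, with 4174, 9367 and 4793 in the replicates, so replicate 2 placed it outside its strongest 7366. The nearest summits of mir-9370 (49 bp), mir-9373 (50 bp) and mir-2491 (159 bp) ranked 5837, 6316 and 7014. Those of mir-4949 (151 bp, rank 1953), mir-966 (428 bp, rank 1406), mir-92a (474 bp, rank 1610), mir-3645 (240 bp, rank 2956) and mir-4968 (485 bp, rank 4274) each lay within 200 bp of a protein-coding TSS. The summits of mir-3645 and mir-2492 (292 bp, rank 2275) held CACGTG. The others were mir-9378 (178 bp), mir-2282 (182 bp), mir-314 (222 bp), mir-9377 (336 bp), mir-14 (358 bp) and mir-277 (423 bp).

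Hairpins of a cluster were mostly bound together or not at all. The members formed 27 loci of 2 or more hairpins with 89 members in all, 12 of these loci had a bound member, and in 11 of the 12 every member was bound. The exception was the pair mir-4970 and mir-9378, which lie far enough apart for 1 of the 2 to fall outside the limit. In all, 26 regions were shared by 2 or more members and 25 members shared a region, with at most 3 members to a region. Each region here is counted by its summit, and several summits can lie in the same interval. Those of ranks 745, 1044 and 5285 near mir-277 do so. Of the 186 summits near members, 27 lay within 400 bp of a stronger one. A shared region follows in part from the rule, since hairpins of a cluster usually lie closer together than the 5000 bp limit.

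The locus of mir-279 and mir-996, which share a seed and are known in the fly for restricting the number of carbon dioxide sensing neurons, had 3 regions within reach of both hairpins. Both lie in exons of lncRNA:CR31044, at chr3R:29215585-29215684 and chr3R:29217184-29217280. The strongest region lay 124 bp from the TSS of that RNA, 1147 bp upstream of mir-279 and 2746 bp upstream of mir-996, with the mean replicate rank 141.3 ± 36.0 (SD, n = 3). The other two ranked 1672, at the promoter of eEF1gamma, and 4976, beside the mir-279 hairpin. No CACGTG lay within 100 bp of any of the 3 summits.

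The locus of mir-317, mir-277 and mir-34 held 8 summits, 6 of them within reach of both mir-277 and mir-34. The strongest of them ranked 745, with 1010, 868 and 571 in the replicates, and lay 2003 bp upstream of mir-277 and 2917 bp upstream of mir-34, within their non-coding host lncRNA:CR43459 and 4258 bp from its TSS. The region nearest to mir-277, 423 bp upstream, ranked 1908. The region at the TSS of lncRNA:CR43459, 36 bp away, ranked 3169 and was within reach of mir-317 only. Only 1 of the 8 summits had CACGTG within 100 bp, the one of rank 3377, which all 3 hairpins share.

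The hairpins mir-2b-2, mir-2a-1 and mir-2a-2 lie in an intron of spi, which encodes a ligand of the epidermal growth factor receptor, and shared 1 region. It ranked 1775, with 2693, 1509 and 1784 in the replicates, and lay 254 bp from a spi TSS. The hairpins mir-2c, mir-13a and mir-13b-1, in lncRNA:CR45911, shared 1 region of rank 3524, with 4212, 3268 and 3714 in the replicates, 1155 bp upstream of mir-2c and 1374 bp from the TSS of that RNA. With the locus of mir-317 these were the loci of 3 hairpins that shared a region.

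The hairpins mir-11 and mir-998 lie in an intron of E2f1, a cell-cycle transcription factor. Their shared region lay 38 bp from a TSS of the insulin receptor gene InR and 13410 bp from the nearest TSS of E2f1. It ranked 2387, with 1883, 1878 and 3400 in the replicates, and was the only optimal summit within 5000 bp of either hairpin. The call for these members therefore rests on a neighbouring promoter and not on that of their host.

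The pair mir-275 and mir-305 shared 4 summits, the strongest at rank 1872, 129 bp from the TSS of the neighbouring gene muc. The summits of ranks 2968 and 4947, 200 bp apart, lay 208 and 8 bp from the TSS of lncRNA:CR43857, the non-coding host of mir-275. The pair mir-92a and mir-92b, in jigr1, shared 1 region of rank 1610 that lay 172 bp from a jigr1 TSS. It was 474 bp downstream of mir-92a and 4324 bp upstream of mir-92b. The pair mir-281-1 and mir-281-2, in introns of Oda, shared 5 summits, the strongest at rank 1108.

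The remaining shared pairs were the weakest. The region of mir-210 and mir-969 ranked 4990, with 14193, 3221 and 4716 in the replicates, and that of mir-314 and mir-956 ranked 5510, with 12077, 5713 and 5705. In both, replicate 1 ranked the region outside its strongest 7366, and both pairs count among the 12 members bound in 2 replicates.

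**Figure D4:**
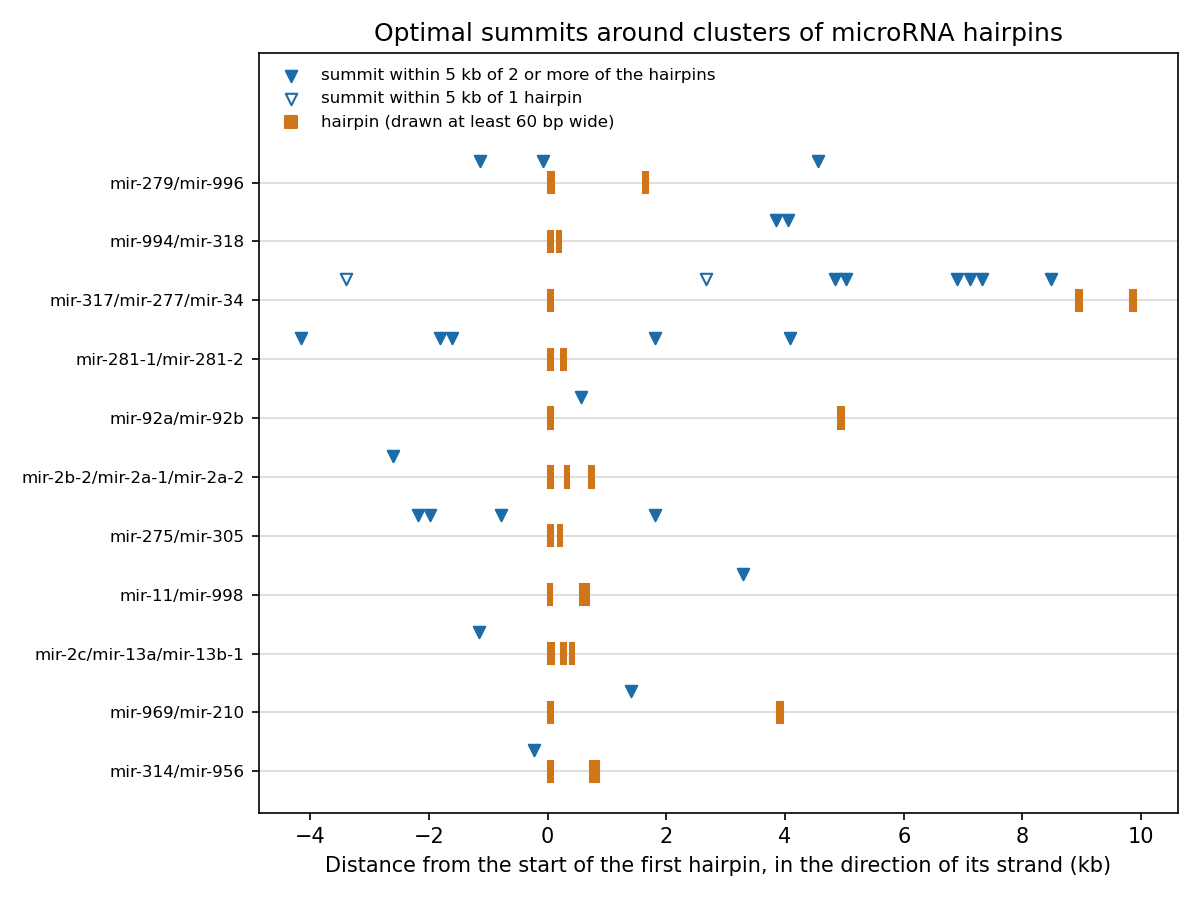
Optimal summits (triangles) around the 11 clusters of microRNA hairpins (boxes) that share a region, placed by distance in kb from the start of the first hairpin in the direction of its strand. Filled triangles lie within 5 kb of 2 or more hairpins of the cluster, as for mir-279/mir-996 with 3 and mir-275/mir-305 with 4, and open triangles within 5 kb of 1.

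By seed, the K box seed was carried by 14 members at 7 loci, and 9 of them were bound. The list of K box microRNAs and the gene lists below were chosen with earlier results of these data known, so their shares only describe them. In the list of K box microRNAs itself 9 of 13 were bound (69.2%), beside the 36.3% of all members. The bound members sat in 5 places, with the 6 hairpins of the spi and lncRNA:CR45911 loci, mir-11 in E2f1, mir-308 in the ribosomal protein gene RpS23 and mir-2b-1 in Btk. The strongest region of mir-308 ranked 2388 and lay 627 bp from the TSS of CG8468 and 2644 bp from that of RpS23. Its region 10 bp from the RpS23 TSS ranked 5929, with 2574, 10266 and 8311 in the replicates. The only region of mir-2b-1 ranked 6036. The unbound members were mir-6-1, mir-6-2, mir-6-3 and mir-13b-2, although mir-13b-2 has the same mature strand as the bound mir-13b-1. Other seeds were split in the same way, as mir-276a was bound and mir-276b was not, 24312 bp from a summit. The seed of mir-92a was carried by 6 members, of which the 2 in jigr1 were bound and mir-310, mir-311, mir-312 and mir-313 were not.

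Of 6 microRNAs reported to act on circadian behaviour in the fly, 4 were bound (66.7%), beside 36.3% of all members and 44.0% of other short genes. They were mir-279 (rank 145), mir-92a (1610), mir-276a (1783) and mir-210 (4990). The region of mir-276a, which is known to target the clock gene timeless, ranked 1177, 1806 and 2165 in the replicates, and lay 2401 bp upstream of the hairpin and 1192 bp from a TSS of its host lncRNA:CR46006. The other two were mir-let7, 5550 bp from the nearest optimal summit, and mir-124, 8070 bp from one. No region of these 4 members' strongest had CACGTG within 100 bp of the summit. With 6 members the count is too small to set the list apart from the rest.

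The let-7 complex, whose 3 hairpins come from a single transcript and time the larval to adult transition, had 0 of 3 members bound, beside 36.3% of all members. The 3 form 1 locus, so this is a single observation. Their nearest optimal summit was the same for all, 5237 bp from mir-125, 5550 bp from mir-let7 and 6128 bp from mir-100, and it ranked 1763. All 3 thus lay just beyond the limit.

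Among 10 microRNAs known for growth, fat metabolism or insulin signalling, 9 were bound, beside 36.3% of all members. This list too was chosen with earlier results of these data known, so the share only describes it. The 10 form 7 loci, of which 6 were bound, since mir-277, mir-34 and mir-317 lie in one and mir-275 and mir-305 in another, and 40.6% of all loci were bound. The hairpin mir-33 lies in an intron of SREBP, the master activator of lipid synthesis genes, and its strongest region ranked 850, with 840, 995 and 820 in the replicates, 539 bp from a SREBP TSS. The region of mir-14, which is known to limit fat stores, ranked 1007, with 966, 1037 and 1084, and a weaker one of rank 6681 lay 87 bp from a TSS of its host lncRNA:CR43651. For mir-8, which acts on insulin signalling in the fat body, the region ranked 1571, with 1240, 1471 and 1832, and lay 143 bp from a TSS of its host lncRNA:CR43650 with CACGTG 34.5 bp from the summit. The mir-375 region ranked 2605 and that of mir-317 2521. The unbound member was mir-278, 22057 bp from a summit.

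Of 11 microRNAs known from neurons and sense organs 4 were bound (36.4%), close to the 36.3% of all members. They were mir-279, mir-996, mir-276a and mir-9a. The region of mir-9a, which keeps the number of sensory organ precursors low, ranked 1273, with 1114, 1573 and 1266, and lay 4315 bp upstream. It was 374 bp from the TSS of lncRNA:CR44676 and 1820 bp from that of the host lncRNA:CR45916. A weaker region of mir-9a, of rank 5557, lay 707 bp from the host TSS. The unbound ones included mir-124 and mir-7, 17330 bp from a summit, and mir-bft, formerly mir-263a, at 15654 bp. Of 4 muscle microRNAs the neighbours mir-92a and mir-92b, which form 1 locus, were bound, while mir-1, 7225 bp from a summit, and mir-133, 28813 bp from one, were not.

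Several known groups had no optimal summit in reach, beside 36.3% of all members bound. The mir-309 cluster, which clears maternal messages in the early embryo, had 0 of 8 members, which form 1 locus, bound, at 21298 to 22277 bp. The hairpins of the Hox complexes had 0 of 4, with mir-iab-4 and mir-iab-8, which overlap on opposite strands, at 6254 bp, mir-993 at 10112 bp and mir-10 at 43285 bp. The testis-expressed clusters on X had 0 of 12, at 2 loci, and mir-4, mir-7 and mir-79, which pair with the Brd and GY boxes of Notch target genes, had 0 of 3. The groups overlap, since mir-4 belongs to the mir-309 cluster and mir-7 to the list from neurons and sense organs. Mirtrons, hairpins released by splicing, were bound in 5 of 14 cases (35.7%), beside 36.3% of all members. They were mir-1004, mir-1006, mir-1009, mir-1012 and mir-1016.

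CACGTG lay within 100 bp of 34 of the 186 distinct summits near members (18.3%, interval 13.4 to 24.5%), beside 13.5% of all optimal summits. It is a palindrome, so both strands were searched at once. Among the 81 regions that were the strongest of a bound member, 19 (23.5%, interval 15.6 to 33.8%) held it, and 32 of 94 bound members had such a summit. Within 250 bp the shares were 28.0% (interval 22.0 to 34.8%) near members and 19.6% of all, and within 50 bp 10.2% (interval 6.64 to 15.4%) and 9.34%. At summits over 1000 bp from a protein-coding TSS they were 21 of 89 (23.6%, interval 16.0 to 33.4%) and 13.9%. The related word CACGCG, searched with its reverse complement, lay within 100 bp of 19 of 186 (10.2%, interval 6.64 to 15.4%) and of 8.0% of all optimal summits. For CACGTG the interval took in the share of all summits at 50 and 100 bp, and lay above it at 250 bp, at the summits away from a TSS and over the 81 strongest regions, which were picked for strength. For CACGCG it took in that share. None of these differences was tested, and members of a cluster share summits.

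The genes that make and use microRNAs and small interfering RNAs were read at their promoters, as the number with a summit within 1000 bp of a TSS. Of 15 such genes 5 had one (33.3%), beside 25.3% of all protein-coding genes. The count was 3 without replicate 2 and 3 without replicate 3, where optimal summits also had to lie among the strongest regions of both other replicates. Such a cut can only lower the count, and no share of all protein-coding genes is given for it. No test was made, so the count does not set these genes apart. The strongest was at r2d2, the partner of Dicer-2, which ranked 1567, with 1203, 1484 and 2040 in the replicates. It was followed by Nbr, which trims microRNA 3′ ends (4015, with 7741, 3395 and 3999), AGO1, the main microRNA Argonaute (4165, with 3631, 4013 and 5514), lin-28, an inhibitor of let-7 processing (4549, with 4848, 6216 and 3924), and AGO2 (5971). The AGO2 region had no counterpart in replicate 1 and ranked 7561 and 5307 in the others. At drosha the nearest summit lay 27386 bp from a TSS, at Dcr-1 9590 bp and at pasha 1811 bp. These 3 genes, of the enzymes that cut microRNA precursors and of Drosha's RNA-binding partner, were thus not bound at a promoter, and neither were Dcr-2, loqs, Ars2, Ranbp21, gw, me31B and Hen1.

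The 5000 bp limit cuts through a continuous range of distances. The bound members farthest from their nearest summit were mir-2281 at 4986 bp, mir-2501 at 4878 bp, mir-9380 at 4788 bp, mir-989 at 4513 bp and mir-987 at 4406 bp. The nearest unbound ones were mir-1014 at 5127 bp, mir-1013 at 5190 bp, mir-4983 at 5236 bp, mir-125 at 5237 bp and mir-9376 at 5380 bp. Of the 165 unbound members, 82 had a summit within 5000 bp in the relaxed pooled list of 30000 regions, which includes background. The replicates' strongest regions called 9 unbound members in at least 1 replicate, but only mir-4975, 5806 bp from an optimal summit, in all 3. One of the 9 was mir-10, with a summit in the pooled list 260 bp away.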

How the data were processed

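The labels number 3 biological replicates in 1 group and do not say how far the collections were separate. The deposited lists hold regions with a summit and a signal value. Per the notes deposited beside the lists, calling was done per replicate against a control alignment and on the pooled replicates, and the optimal list passed IDR. The signal is the authors' peak caller score. Not given in the sources used here are its scale, the name of the caller and aligner, any version, and the cut-off used for IDR. Read depth is unknown. Score medians differed between replicates (33.0, 44.2 and 65.2), so signal was used only to rank regions within a list, 1 being the strongest. Each relaxed list holds 30000 regions, and the optimal list equals the 7366 strongest pooled ones.

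Genes came from Ensembl 115 and sequences from RefSeq, both on dm6. Lists on dm3 were not used. Distances run from the gene's ends to the summit. Hosts span the hairpin on its strand, and non-coding hosts are at least 200 bp. Members and gene lists were chosen with earlier results of these data known. Listed names were matched by symbol or RefSeq synonym (mir-263a as mir-bft, nbr as Nbr, mir-983 as mir-983-1 and mir-983-2). Genes named are bound list members, the 20 strongest, those with a summit within 500 bp, clusters of 3 or more sharing a region, unbound let-7, circadian and Hox members, and 5 on each side of the limit. Others named beside them were chosen after their values were seen. CACGCG was added after the data were seen. Shares have 95% Wilson intervals, which cover counting error only. With 1 group no test was made. The binding rule was tested on simulated lists. Python 3.11.15, pandas 2.3.3, numpy 2.4.6 and scipy 1.17.1 were used.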

Additional observations from a re-analysis of the deposited data

How the results depend on the processing

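Of 48 alternatives for 7 results, 30 left the result within its spread or within 1.5 times and 18 moved it. For the median rank the spread was the median SD of single regions' replicate ranks, 472.2, which is not an error of that median. The 141 members bound at 10000 bp were counted as within 1.5 times and lie at that edge. The distance limit mattered most. The count of 94 bound members fell to 33 at 1000 bp and 51 at 2000 bp. The replicates' mean of 36.6% became 12.2% at 1000 bp, 19.2% at 2000 bp and 56.8% at 10000 bp, and 26.4% with 3683 regions per replicate. The 26 shared regions became 2, 8 and 52 at those limits. The median rank of 1947.5 became 4274 and 3354 at 1000 and 2000 bp, and 3327.5 for the nearest summit. Only protein-coding hosts gave 63.8% in place of 78.7%. CACGTG near members was 10.2% within 50 bp and 28.0% within 250 bp. The 5 pathway genes became 10 when a summit within 5000 bp of the gene was counted.

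To leave out a replicate, optimal summits were kept if they lay among the strongest regions of both other replicates. No list was called again. This left 6034, 5689 and 5706 regions without replicates 1, 2 and 3. The cut lists gave 79 to 91 bound members, 20 to 23 shared regions and 3 to 4 pathway genes. The last count was 3 without replicate 2 and 3 without replicate 3. Such a cut can only lower these counts. On the same lists 79.1 to 83.5% of bound members lay in a host and 18.5 to 21.4% of summits near members held CACGTG. The median rank was 1775 to 1872. These values describe a stricter list and not one made without a replicate. The replicates' mean share, with 1 replicate left out, was 36.1 to 37.3%. No paired analysis was possible because there is 1 group. Without read counts or a second condition, these lists show where regions passed the authors' procedure and not how binding differs between regions.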
